A study of Solanum tuberosum with 6 samples.

Results

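The miR530 family was represented in potato leaves by 1 sequence, stu-miR530_L-2R+2. It was found by its name, as the rows of the deposited miRNA table that are written with a species prefix and then -miR530 in lower case, with no further digit, and 1 of 910 sequences met this rule. The study selected this miRNA on the comparison of KPhi with control in the same 6 libraries, using its normalized values, so the levels of that comparison are given here as a description, without a test of the miRNA itself. The leaves were of the potato cultivar Shepody, and their small RNA was sequenced. Leaves of KPhi plants (libraries T2, T4 and T6) came from plants whose foliage was sprayed with a commercial potassium phosphite product, diluted to 1% (v/v) in water, at 5 mL per plant, and leaves of control plants (C1, C3 and C5) from plants sprayed with water. In both groups the spray was given 21 days after emergence and the leaves were taken 72 h later, at 24 days, from plants grown in pots in a greenhouse. The study describes the 3 libraries of each condition as biological replicates, and the labels do not tell how many plants went into each.

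miR530 is a plant miRNA known from many flowering plants. Like other plant miRNAs it is cut from a hairpin precursor, is loaded into an Argonaute protein and pairs along nearly its whole length with a target mRNA, which is then cleaved or held back from translation. In rice, miR530 targets the mRNA of a PLUS3 domain protein, and it is known as a regulator of grain size. Zinc knuckles are short zinc-binding motifs that contact nucleic acids. Phosphite resembles phosphate with an oxygen fewer. Plants absorb it without being able to feed on its phosphorus, and growers spray it against oomycete diseases such as late blight.

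The sequence read from these leaves is shown first, because its ends differ from those of the annotated form. Its seed (bases 2 to 8 from the 5′ end) is in capitals.
stu-miR530_L-2R+2: tGCATTTGcacctgcacctta
It is 21 nt long and starts with T (U in the RNA), as do 92 of the 167 sequences of 21 nt in the table (55.1%). By the naming system of the table, L-2 and R+2 mean that it starts 2 bases later at the 5′ end and runs 2 bases further at the 3′ end than the annotated stu-miR530, so the seed of the sequence detected is moved by 2 bases from that of the annotated form. Of its 21 bases 10 are G or C (47.6%, against a median of 45.8% over the 910 sequences). The 6 bases TGCACC stand in it 2 times in a row, at bases 7 to 18. Of the 910 sequences 11 hold TGCACC once or more (1.21%), and stu-miR530_L-2R+2 is the only 1 that holds both copies in a row. No other sequence of the table shares its seed at the same position, and none shares 12 of its bases in a row on either strand. Its reads were whole numbers in all 6 libraries, whereas 306 of the 910 sequences (33.6%) had fractional reads in at least 1 library, any departure from a whole number counted (a tolerance of 0).

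The other arm of the same precursor was also read. It is named stu-MIR530-p3 and is no member by the rule, and its sequence is shown because its pairing with the miRNA gives the shape of the duplex.
stu-MIR530-p3: gaaaggtgttggtgctcatgcaga
Laid against each other without gaps, the 2 arms pair over 21 bases, with 16 Watson-Crick pairs, 1 G:U pair and 4 bases unpaired, and the 3′ end of stu-MIR530-p3 (24 nt) stands 2 bases past the 5′ end of stu-miR530_L-2R+2. At the other end of the duplex the 3′ end of stu-miR530_L-2R+2 has no overhang, and the 5′ end of stu-MIR530-p3 stands 1 base past it. stu-MIR530-p3 had 0, 1 and 1 reads in T2, T4 and T6, against 5, 1 and 0 reads in C1, C3 and C5. A floor of 3 reads for a count of 0, which is a one-sided limit, is 0.374 reads per 1000000 mappable reads in T2 and 0.726 in C5. The exact Poisson 95% intervals, which are two-sided, reach higher, to 0.460 in T2 and 0.892 in C5. Of the reads of both arms, stu-MIR530-p3 took 2 of 66 (3.03%, exact Clopper-Pearson 95% interval 0.369 to 10.5) in KPhi libraries and 6 of 167 (3.59%, 1.33 to 7.66) in control libraries. The intervals, which cover counting error only, overlap nearly whole, and in both conditions the 5′ arm was the one that accumulated. RefSeq lists 1 potato gene for this precursor, MIR530, of 81 bases in the SolTub_3.0 assembly.

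The sites that the study predicted for this miRNA are described by their sequences, because they show how far the form detected can pair. They are 29 sites in 23 transcripts, with 18 different sequences of 21 bases. Of these, 3 are printed, the site with the most pairs, the site that holds the repeat of the miRNA and a site that is unpaired in the middle. They are given 5′ to 3′, with the bases that do not form a Watson-Crick pair with stu-miR530_L-2R+2 in capitals.
Zinc knuckle (CCHC-type) family protein: GUaggugcaggugUaaaugca
AP2 transcription factor SlAP2b: GCaggugcaggugcaGGugca
Nucleotidyltransferase family protein: GUaggugUaggGgcaaaugca
The zinc knuckle site, the same in 5 transcripts (PGSC0003DMT400002881 to PGSC0003DMT400002885), has 18 Watson-Crick pairs. It has 1 G:U pair opposite base 8 of the miRNA and is unpaired only opposite bases 20 and 21, which are the 2 bases that the detected form has beyond the annotated 3′ end. The SlAP2b site, the same in 3 transcripts of an AP2 factor, a class of plant DNA-binding proteins, has 17 Watson-Crick pairs, 2 G:U pairs opposite bases 5 and 6, and the same unpaired bases 20 and 21. GGUGCA, the complement of the repeated TGCACC, occurs in 7 of the 18 different sites. Only the SlAP2b site holds 2 or more copies in a row. It holds 3, and the last copy includes the bases of the 2 G:U pairs. The nucleotidyltransferase site, with 17 Watson-Crick pairs, is unpaired opposite base 10. Plant miRNAs usually cleave opposite bases 10 and 11, and 16 of the 18 sites had Watson-Crick pairs at both. The seed was wholly Watson-Crick paired in 3 of the 18. Over all sites the Watson-Crick pairs numbered 15 to 18. The study picked the sites for their complementarity to this miRNA, so a high number of pairs follows from that choice. These are matches of letters, and the abundance of the target mRNAs was not analysed here.

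The primers of the study show which form its assays were made for, with the matching bases in capitals.
Stem-loop RT primer: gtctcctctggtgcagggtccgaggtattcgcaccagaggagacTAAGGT
Target forward primer: cgctGTAGGTGCAGGTGTAA
The last 6 bases of the stem-loop primer are the complement of the last 6 bases of stu-miR530_L-2R+2, and these include the 2 bases at the 3′ end that the annotated form lacks. The forward primer for the zinc knuckle mRNA ends in the first 16 bases of the predicted site, of which 11 lie before and 5 past the point opposite bases 10 and 11 of the miRNA. The primer site thus spans that point.

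By rank stu-miR530_L-2R+2 stood in the upper part of the table in these leaves, but it made up a small share of the reads. It had 225 reads over the 6 libraries, 0.00886% of the reads in the table, which placed it 74th of 910 sequences and 36th of the 212 rows named miR. Its family was 19th of 87 by reads. The 6 libraries had between 4133739 and 8025802 mappable reads, of which the miRNA table held 3.66% to 11.3%, and stu-miR530_L-2R+2 rested on few reads in each library.
The miRNA had 25, 23 and 16 reads in T2, T4 and T6, against 81, 33 and 47 reads in C1, C3 and C5. These are 3.11, 5.24 and 2.69 reads per 1000000 mappable reads in T2, T4 and T6, against 14.9, 6.95 and 11.4 in C1, C3 and C5. Every KPhi library lay below every control library, as was so for 12.1% of the 165 sequences with enough reads to be tested, and C3 and T4 stood nearest to each other, at 1.33 times. On this scale the order of the libraries was C1, C5, C3, T4, T2 and T6. Exact Poisson 95% intervals, which cover counting error only, were 2.02 to 4.60 in T2, 3.32 to 7.86 in T4 and 1.54 to 4.37 in T6, against 11.8 to 18.5 in C1, 4.79 to 9.76 in C3 and 8.35 to 15.1 in C5. Neighbours in this order overlapped in their intervals, C3 and T4 included, so that across the 2 conditions the closest libraries did not differ beyond counting error. Within the control group C1 and C3 did not overlap. In the KPhi group all intervals overlapped.

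**Figure D1:**
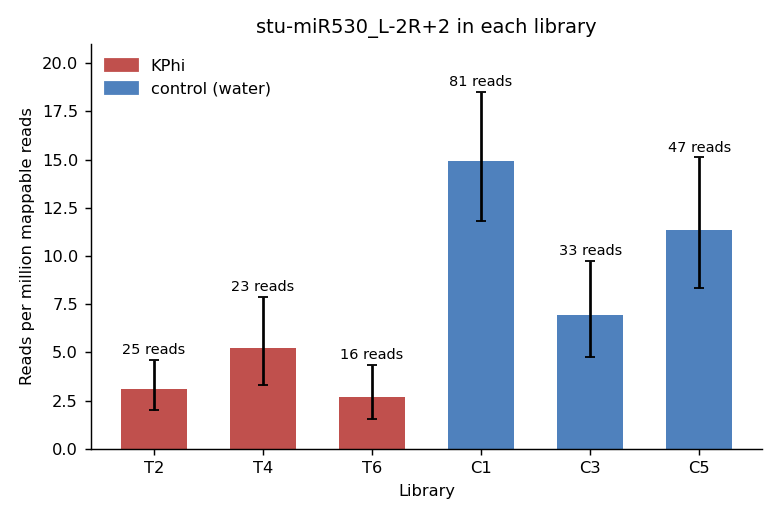
Reads of stu-miR530_L-2R+2 per 1000000 mappable reads (y axis) in the 3 KPhi and the 3 control libraries (x axis), with exact Poisson 95% intervals as error bars and the number of reads above each bar. The KPhi libraries sit between 2.69 and 5.24 and the control libraries between 6.95 and 14.9, and the intervals of T4 and C3 overlap.

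The mean was 3.68 ± 1.36 reads per 1000000 mappable reads in KPhi and 11.1 ± 3.98 in control libraries (SD, n = 3 each), a ratio of 0.332. In leaf samples, less of a miRNA per cell and fewer cells that hold it cannot be told apart.
The size of the difference depended on the scaling. TMM, the scaling of edgeR that evens out the bulk of the sequences, gave 74.6, 77.3 and 30.8 CPM (counts per 1000000 scaled reads) in T2, T4 and T6, against 139.8, 94.6 and 139.0 CPM in C1, C3 and C5. The TMM factor, by which the size of a library is multiplied, was 1.85 in T4. In the other libraries it lay between 0.75 (C3) and 0.95 (C1), so T4 was scaled down far more than they were. On this scale T6 stood apart from T2 and T4, and C3 from C1 and C5. The means were 60.9 ± 26.1 CPM in KPhi and 124.5 ± 25.9 CPM in control libraries (SD, n = 3 each). The log2 fold change of KPhi over control from edgeR's quasi-likelihood model was -1.05 (standard error 0.54), beside a median of -0.13 over the 165 sequences tested. Of these 165 sequences edgeR called 0 (0.0%) after Benjamini-Hochberg adjustment at a threshold of 0.05. Before adjustment, 16 (9.7%) were under that threshold, 7 of them (4.24%) lower in KPhi. DESeq2 also called 0 after adjustment and 27 before it, and limma-trend 0 and 9.
The deposited normalized values, in which the authors divided the reads of a library by 1 parameter, were 29.3, 30.5 and 11.97 in T2, T4 and T6, against 61.9, 38.0 and 52.7 in C1, C3 and C5. The methods describe a scaling by clean reads, but the parameter did not follow the mappable reads. It was 0.853 in T2, which had 8025802 mappable reads, and 1.31 in C1, which had 5434422, so the unit of these values is not known. They placed the libraries in the same order as TMM did, and the KPhi mean was 0.470 times the control mean. The miR166 family held 60.0% to 83.5% of the table. Relative to the reads outside it, the miRNA had 262.4, 357 and 154 reads per 1000000 such reads in T2, T4 and T6, against 802, 423 and 668 in C1, C3 and C5, again without overlap.
Relative to all reads of the miRNA table the groups overlapped. The values were 68.3, 142.9 and 28.8 per 1000000 table reads in T2, T4 and T6, against 132.3, 70.5 and 124.4 in C1, C3 and C5, and T4 was the highest of the 6 libraries. T4 had the smallest part of its mappable reads in the table (3.66%, against 4.56% in T2, 9.35% in T6 and 9.14% to 11.3% in control libraries) and the smallest part of its table in miR166 (60.0%, against 74.0% to 83.5% in the other libraries), and the part of these shares in the order of the levels was not tested. The groups were free of overlap under 5 of 6 scalings. As background, every KPhi library lay below every control library for 9.09% of the 165 sequences by TMM, 12.1% by mappable reads, 9.09% by the reads outside miR166, 9.7% by the authors' parameter and 2.42% by library size alone, and every KPhi library lay above every control library for 7.88% by TMM.

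**Figure D2:**
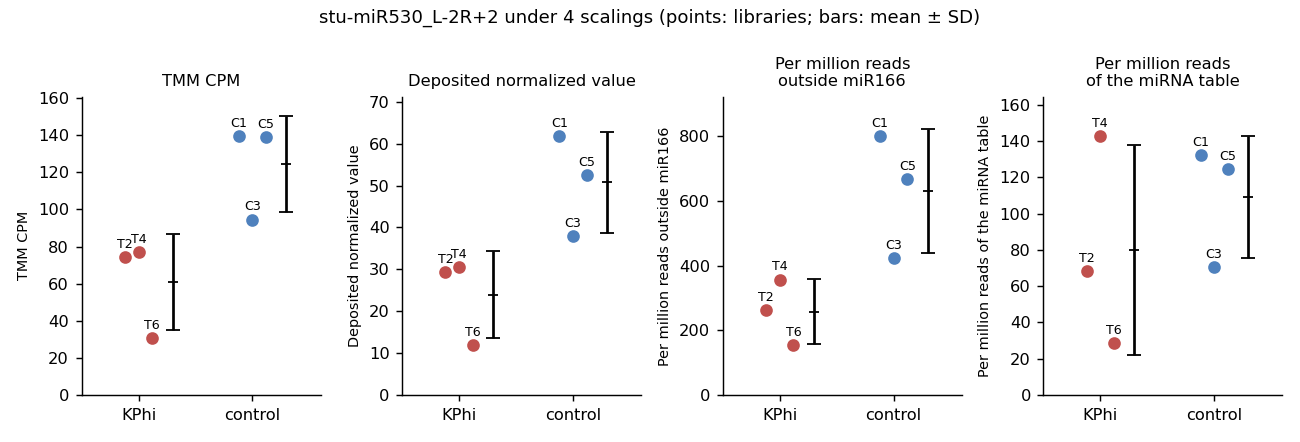
Level of stu-miR530_L-2R+2 (y axes) under 4 scalings in KPhi and control libraries, with a point for each library and the mean ± SD beside the points (n = 3 each). KPhi points lie below all control points in the first 3 panels, and in the panel of table reads T4, at 142.9, lies above all control libraries.

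With library size alone the log2 fold change was -0.50 (standard error 0.68), and with mappable reads it was -1.59 (standard error 0.78). The median of all tested sequences moved with the scaling, and was 0.35 and -0.49 in these 2 fits. Taken against the median of the same fit, stu-miR530_L-2R+2 lay between -1.11 and -0.84 under the 6 scalings. Without T6, the library with the fewest reads of the miRNA, the log2 fold change was -0.63 (standard error 0.53). It stayed below 0 in all 16 alternatives.

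**Figure D3:**
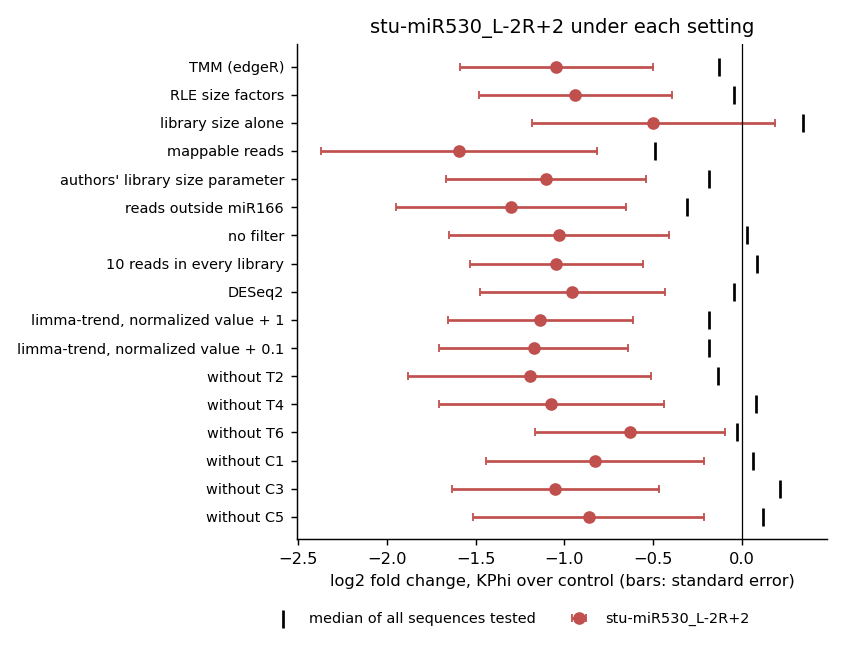
Log2 fold change of stu-miR530_L-2R+2, KPhi over control (x axis, with standard errors), under each scaling, filter, tool and with 1 library left out (y axis), with the median of all sequences tested as a black mark. All points lie below 0, between -1.59 by mappable reads and -0.50 by library size alone, and the median lies right of the point in every setting.

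Among the 165 sequences tested, stu-miR530_L-2R+2 was 74th by mean level (92.7 CPM over the 6 libraries, against a median of 77.4 CPM) and had the 9th lowest log2 fold change. That rank moved with the setting. It was 5th lowest of 165 by mappable reads, 30th of 144 without T6 and 186th of 841 without the filter on low reads. Its spread within conditions, 0.57 as an SD of log2(CPM + 1), was close to the median of the 165, 0.62, and 68 sequences spread less. The neighbours in level were nta-miR159_R+1 (103.5 CPM, within-condition SD 0.25) and nta-MIR6159-p5_1ss6GT (93.1 CPM, SD 1.07) above it, and PC-3p-19155_111 (92.4 CPM, SD 1.14) and PC-3p-28080_73 (92.4 CPM, SD 1.25) below it. Of these 5 sequences of like level, only nta-miR159_R+1 varied less between libraries of 1 condition than stu-miR530_L-2R+2 did. Its own log2 fold change was -0.24 (standard error 0.48), and its family is known for targeting GAMYB transcription factors.
Conserved miRNA families whose known targets are transcription factors were taken as the list to set beside miR530. Only rows written -miR in lower case were listed, whichever arm they name. Opposite arms written -MIR, such as sly-MIR166b-p5 and sly-MIR167b-p3, were left out. Of 62 such rows of the table, 21 were tested, from 8 of the 12 families on the list. Of the 21, 4 had log2 fold changes above 0 and 17 below 0, and 0 passed the threshold in either direction. Their median was -0.49, beside -0.13 over all 165, of which 72 were above 0 and 93 below. By number the list is led by 8 sequences of miR166, all of them below 0 (median -0.73), so the 17 is no count of separate families. The 3′ arm of miR166 acts on mRNAs of HD-ZIP III factors, and sequences named as 5′ arms are among the 8. By its log2 fold change stu-miR530_L-2R+2 would stand sixth from the bottom of this list, since 5 of the 21 were lower. The lowest was sly-miR319a_L-1R+2 (-2.29, standard error 0.55, on 59 reads over the 6 libraries), whose family acts on TCP factors. From miR171, which acts on GRAS factors, came sly-miR171d_R+1_1ss8GA (-1.36) and, as the other arm, stu-miR171a-5p (-1.13). From miR166 came stu-miR166b (-1.28) and sly-miR166c-3p_R+1 (-1.08). The study selected these sequences of miR171 and miR166 as lower in KPhi in the same libraries, as it did stu-miR530_L-2R+2. A place near the bottom of the list was thus set in part by that selection, and is given as a description. At the other end stood sly-miR396a-5p (2.56, standard error 0.96), of a family that targets growth-regulating factors. Of the same family, stu-miR396-5p was also above 0 (1.07) and sly-miR396a-3p_1ss10AG was below it (-0.35).

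**Figure D4:**
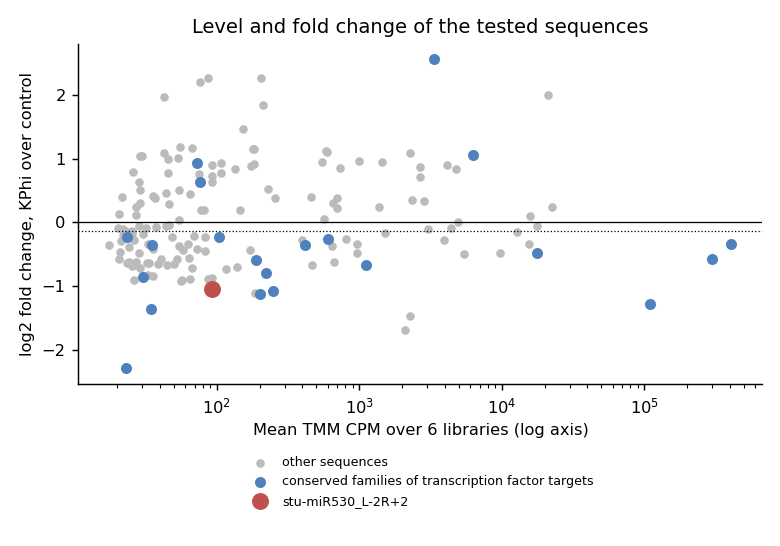
Log2 fold change of KPhi over control (y axis) against mean TMM CPM (x axis, log axis) for the 165 sequences tested, with stu-miR530_L-2R+2 in red, the 21 listed sequences in blue and the median of all as a dotted line. stu-miR530_L-2R+2 lies at 92.7 CPM and -1.05, 74th of the 165 by level but toward the low end of the log axis.

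The sequences whose levels went most like those of stu-miR530_L-2R+2 over the 6 libraries are given as a description. Pearson's r was computed on log2(CPM + 1) with 164 sequences, and its median was -0.04. The highest was that of stu-miR162a-5p, r = 0.88, and no sequence was above 0.9. stu-miR162a-5p had 137.2, 107.5 and 73.2 CPM in T2, T4 and T6, against 214.0, 100.3 and 198.2 CPM in C1, C3 and C5. It was low in T6 and in C3 within its condition, as was stu-miR530_L-2R+2. After the mean of each condition was taken away r was 0.82. This value is not independent of the choice of stu-miR162a-5p as the highest r in the same libraries. Its family guides the cleavage of DICER-LIKE mRNA in Arabidopsis, with the 3′ arm, while stu-miR162a-5p is the 5′ arm.
The next were stu-MIR1886a-p5_1ss4AG (r = 0.81, and 0.61 within conditions), stu-miR482c (0.76 and 0.43), whose relatives act on NBS-LRR disease resistance genes, sly-miR171d_R+1_1ss8GA (0.74 and 0.29) and PC-3p-38854_49 (0.67 and 0.67). For sly-miR171d_R+1_1ss8GA and stu-miR482c the likeness lay more in the difference between conditions than in the libraries within them. PC-3p-38854_49 (log2 fold change -0.18, with 0.70 as its standard error) kept its r within conditions, but on 59 reads in all. It had 53.7, 13.4 and 5.78 CPM in T2, T4 and T6, and shared with stu-miR530_L-2R+2 the low T6. In the controls the order differed. PC-3p-38854_49 had 27.6, 28.7 and 23.7 CPM in C1, C3 and C5, highest in C3, where stu-miR530_L-2R+2 was lowest. The sequence least like stu-miR530_L-2R+2 was stu-miR398b-3p (r = -0.75), of a family that targets mRNAs of copper proteins. It had 50.7, 30.2 and 40.4 CPM in T2, T4 and T6, against 20.7, 22.9 and 14.8 CPM in C1, C3 and C5. All these points come from the same 6 libraries and share their depth and scaling. Like miR530, stu-miR482c and sly-miR171d_R+1_1ss8GA (both lower in KPhi) and stu-miR398b-3p (higher) were selected by the study on KPhi against control in these libraries. Their likeness or unlikeness between conditions therefore follows in part from that selection and is no separate result.

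**Figure D5:**
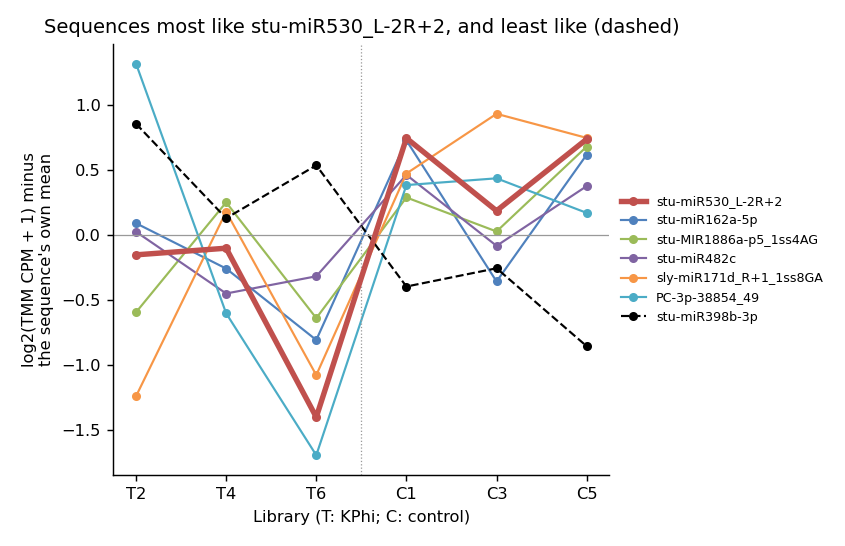
log2(TMM CPM + 1) minus each sequence's own mean (y axis) in the 6 libraries (x axis) for stu-miR530_L-2R+2 (thick red line), the 5 sequences with the highest r and the 1 with the lowest (dashed). T6 is the lowest library of stu-miR530_L-2R+2, and stu-miR162a-5p, with r = 0.88, is also lowest there.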

How the data were processed

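The authors made small RNA libraries with the TruSeq kit. Their program ACGT101-miR (its version and the genome build are not given in the sources used here) removed adapters, common RNA families and repeats and matched sequences to miRBase 21.0. The deposited whole-number counts of reads at each step gave the mappable reads. The deposited expected counts are reads per sequence before normalization, some split as fractions, and were rounded. The authors' deposited normalized signal is these reads divided by 1 parameter per library, with 0.001 for 0 reads. The methods describe a scaling by clean reads, which the deposited values do not show. The authors' deposited table of their own test (p-values and group means) was not used.
Groups came from the sample titles. The test was the quasi-likelihood test of edgeR 4.0.16 with TMM and Benjamini-Hochberg adjustment (threshold 0.05), over sequences that reached 10 reads in 3 or more libraries. Alternatives were other scalings, filters, DESeq2 1.42.0, limma 3.58.1 on log2(normalized value + 1 or + 0.1) and leaving out each library. Other tools were R 4.3.3, matplotlib 3.10.9, Python 3.11.15 and, for tables and intervals, scipy 1.17.1 with pandas 2.3.3 and numpy 2.4.6. P-values measure only the spread between these libraries. Site and primer sequences came from the study's supplementary files.
The member and the lists were chosen with earlier results of these data known. Sequences named are the miRNA and its opposite arm, 2 neighbours on each side in level, the 5 highest and the lowest r, and, chosen after their values were seen, list members beyond miR530.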

Additional observations from a re-analysis of the deposited data

How the results depend on the processing

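The log2 fold change of stu-miR530_L-2R+2 was below 0 in all 16 alternatives and moved from -1.05 by less than 1 SD within conditions (0.57) in each. With 1 library left out it ranged from -1.20 (without T2) to -0.63 (without T6). RLE size factors gave -0.94, DESeq2 -0.95 and the reads outside miR166 -1.30. KPhi was lower in 9 of 9 pairs of libraries under each scaling except library size alone (6 of 9). By TMM the same was so for 9.09% of the 165 sequences. With any 1 library left out it was lower in 6 of 6 pairs. Those pairs are part of the 9, only scaled anew, so this count is no separate check. Sequences called at an adjusted p under 0.05 numbered 0 in the edgeR fit and 0 in every alternative (DESeq2 and limma included) except without the filter on low reads, where edgeR called 4 of 841. At an unadjusted p under 0.05 DESeq2 called 27 of the 165, limma-trend 9, and edgeR between 4 (without C1) and 23 (library size alone) of the sequences tested, but 46 without the filter. No paired analysis was made, because the labels do not tell whether KPhi and control libraries belong in pairs. The replicate numbers run from 1 to 6 across the conditions, so none occurs in both. Depth limits the miRNA itself: its lowest level rests on 16 reads, in T6.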
